A study of Homo sapiens with 12 samples.

Results

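The members described here are the long intergenic non-coding RNAs listed under a symbol made of LINC and a number. Of 17096 genes listed for each library, 145 carried such a symbol (LINC01021 was left out), and the 127 that reached 1 FPKM in at least 2 of the 12 libraries were kept. FPKM is a fragment count divided by transcript length and library size, so levels of different genes can be compared per length. The 18 symbols outside included LINC00954, whose second highest library stood at 0.962 FPKM, LINC00987 at 0.957 and LINC01126 at 0.931. Just inside were LINC00624 at 1.00, LINC01993 at 1.01 and LINC01547 at 1.08 FPKM. LINC01021 was left out by name. Otherwise the rule used the level alone and no difference between groups, but it was set with earlier results of these data known. Every gene listed is above 0 in all 12 libraries, and whether genes at 0 in some library were left out is not given. Long intergenic RNAs silent at 1 day or under 1 label may therefore be missing from the set.

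The libraries came from H7, a line of human embryonic stem cells, at days 3, 7 and 15 of its directed differentiation into cardiomyocytes. At each day 2 libraries carry the label E2A-KO (genotype E2A-/-) and 2 the label WT (wild type). The labels call the day 3 cells cardiac mesoderm and the day 7 and day 15 cells cardiomyocytes. E2A is an older name of TCF3, whose proteins belong to the E protein class of transcription factors. Where in the gene the edit lies and how many clones were used are not given in the labels. Nothing says whether replicates came from separate cultures, and each p-value therefore measures the spread among these libraries alone, which may be technical.

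Long intergenic non-coding RNAs are transcripts made from stretches between protein-coding genes, most of them capped, spliced and polyadenylated like a messenger RNA. They are usually present at lower levels than messenger RNAs and are often restricted to 1 cell type or stage. Many act in the nucleus on genes close to them, others act in the cytoplasm, and for most members no role is established. Several symbols first filed as non-coding have since been found to encode small proteins.

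The level of TCF3 over the whole gene did not mark the libraries labelled E2A-KO. It was 146 and 148 FPKM in those libraries at day 3, against 179.5 and 149 FPKM in WT libraries. At day 7 it was 179.9 and 172 FPKM under the label E2A-KO and 135 and 138 FPKM in WT, and at day 15 it was 169.7 and 108 FPKM under the label E2A-KO and 74.4 and 98.2 FPKM in WT. A level over the whole gene does not show whether the protein is made, and the groups are therefore called by their labels. The summed FPKM of 7 cardiomyocyte markers was 1172 and 1018 in the libraries labelled E2A-KO at day 7, against 6076 and 6073 in WT, and at day 15 3663 and 2972 (E2A-KO) against 8607 and 9492 (WT). All 7 lay below WT at day 7, and at day 15 5 did, while MYH6 lay above WT and NKX2-5 overlapped. Of 6 pluripotency markers fixed, 5 were listed, and they summed to 465 and 433 FPKM under the label E2A-KO at day 15, against 119.9 and 139 FPKM in WT. That sum is mostly LIN28A (366 and 333 FPKM, against 60.7 and 64.3 FPKM in WT). SOX2 was also above WT, POU5F1 and DPPA4 overlapped between the labels, and TDGF1 lay below WT (1.84 and 1.94 FPKM, against 13.5 and 11.96 FPKM in WT). Mitochondrially encoded transcripts held 18.5% to 20.2% of summed FPKM under the label E2A-KO at day 7 against 8.14% to 8.55% in WT, and 13.9% to 14.3% (E2A-KO) against 26.1% to 26.2% (WT) at day 15. These values move with the genotype comparisons at days 7 and 15, and their part in the results on single members was not tested. In bulk RNA, fewer cells that make a transcript and less of it per cell cannot be told apart.

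The sequences around the starts of 5 members are shown first, because E proteins bind DNA as dimers at E-boxes, whose letters are CANNTG. They were chosen after their values were seen, 4 of them from the members called at 2 or 3 days and LINC00261 for its fall at day 3. Each window runs from 250 bases before the start of the gene to 50 bases after it, is read in the direction of transcription and comes from RefSeq on GRCh38.p14. LINC01356 was the member with the highest single level at day 3 and was lower under the label E2A-KO at all 3 days (chr1:112850594-112850893, minus strand). LINC00261, at chr20:22578593-22578892 on the minus strand, had the largest fall at day 3. LINC01515, at chr10:65571175-65571474 on the plus strand, was lower at days 3 and 15, with no call at day 7. LINC00173, at chr12:116533172-116533471 on the plus strand, was higher at days 3 and 7. LINC01106, at chr2:110384487-110384786 on the minus strand, shares 289 of 289 aligned bases of its window with LINC01123. Its GENCODE start, at 110384442, lies outside the window too. Capitals mark every CANNTG.
LINC01356: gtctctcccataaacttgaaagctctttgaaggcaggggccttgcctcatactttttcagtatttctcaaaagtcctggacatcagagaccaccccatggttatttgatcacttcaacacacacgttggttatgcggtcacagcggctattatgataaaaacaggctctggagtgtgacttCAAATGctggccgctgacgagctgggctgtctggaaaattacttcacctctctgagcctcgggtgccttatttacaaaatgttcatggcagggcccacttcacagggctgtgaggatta
LINC00261: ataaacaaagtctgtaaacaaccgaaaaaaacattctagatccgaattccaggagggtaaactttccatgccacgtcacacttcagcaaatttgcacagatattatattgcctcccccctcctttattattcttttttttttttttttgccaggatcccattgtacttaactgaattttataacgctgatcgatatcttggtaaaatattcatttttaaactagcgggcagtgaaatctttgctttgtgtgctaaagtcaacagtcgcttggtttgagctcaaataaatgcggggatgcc
LINC01515: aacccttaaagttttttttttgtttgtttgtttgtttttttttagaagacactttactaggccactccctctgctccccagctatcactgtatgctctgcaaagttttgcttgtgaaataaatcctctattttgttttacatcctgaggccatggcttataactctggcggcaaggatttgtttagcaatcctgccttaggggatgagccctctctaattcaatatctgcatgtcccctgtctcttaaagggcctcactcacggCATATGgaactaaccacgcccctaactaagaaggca
LINC00173: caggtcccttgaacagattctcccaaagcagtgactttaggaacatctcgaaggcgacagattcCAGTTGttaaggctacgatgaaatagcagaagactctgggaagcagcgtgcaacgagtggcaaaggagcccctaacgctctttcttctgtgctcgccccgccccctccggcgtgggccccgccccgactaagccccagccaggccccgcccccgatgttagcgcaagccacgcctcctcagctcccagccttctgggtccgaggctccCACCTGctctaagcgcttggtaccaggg
LINC01106: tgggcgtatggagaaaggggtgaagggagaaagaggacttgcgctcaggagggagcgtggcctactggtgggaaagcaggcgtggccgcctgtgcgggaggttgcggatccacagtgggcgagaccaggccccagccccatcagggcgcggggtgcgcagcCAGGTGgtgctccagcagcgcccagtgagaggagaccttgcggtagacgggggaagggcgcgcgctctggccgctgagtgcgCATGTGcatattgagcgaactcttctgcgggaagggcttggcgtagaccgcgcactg
The window of LINC00261 holds no CANNTG, those of LINC01356 and LINC01515 hold 1 each, and those of LINC00173 and LINC01106 hold 2 each. Windows of 96 of the 127 members were searched, and some members have more than 1, which gives 113 windows. CANNTG, which reads the same on both strands, occurs in 69.9% of these 113 windows, against 68.7% of all 35116 windows of the table. The letters CAGCTG occur in 20.4% of member windows against 17.9% of all, and CACCTG, searched on both strands, in 31.0% against 20.6%. Both are special cases of CANNTG. The letters TATAAA, on both strands, occur in 12.4% against 11.5%. A match describes letters in a window and not a bound site.

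The members were low. In the 12 libraries they held 0.0977% to 0.144% of the summed FPKM, and the median member stood at 1.84 to 2.75 FPKM, against 8.84 to 9.90 FPKM for the median of the 16295 genes tested. Over all libraries, 16 members averaged 10 FPKM or more, 90 averaged 1 to 10 and 21 less than 1, and 77 were below 1 FPKM in at least 1 library. The highest mean belonged to LINC01578, now named CHASERR, a transcript that holds down its neighbour CHD2 in the mouse. It stood at 77.2 and 105 FPKM in the libraries labelled E2A-KO and 84.1 and 82.8 FPKM in WT at day 3. Day 7 libraries stood at 113 and 158 FPKM (E2A-KO) and 122 and 115 FPKM (WT), and at day 15 at 114 and 143 FPKM (E2A-KO) and 114 and 96.4 FPKM (WT). No genotype difference passed the test at any day (log2 changes 0.11 ± 0.19, 0.18 ± 0.19 and 0.28 ± 0.19, adjusted p 0.72, 0.48 and 0.28). LINC00493, LINC00969, LINC02210 and LINC00665 followed.

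Differences were tested with limma on log2(FPKM + 1), which understates the change of low genes, in 1 fit of all 12 libraries. A member is called where the Benjamini-Hochberg adjusted p over all 16295 genes is under 0.05. A change of 1 on this scale is 2-fold in FPKM + 1. Errors beside log2 changes are standard errors of the fit, with 2 libraries per group.

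A member was taken as highest at 1 day where it was higher there than at each of the other 2 days, with both contrasts called. By this rule 27 of the 127 members (21.3%) were highest at 1 day under the label E2A-KO, where the background over all tested genes was 22.1%. In WT there were 47 (37%), against a background of 40.4%. Under the label E2A-KO 4 members were highest at day 3 (3.15%, background 7.68%), 8 at day 7 (6.3%, background 5.25%) and 15 at day 15 (11.8%, background 9.19%). In WT 10 were highest at day 3 (7.87%, background 14.6%), 7 at day 7 (5.51%, background 9.06%) and 30 at day 15 (23.6%, background 16.8%). Some peaks are tied to how a member entered the set. LINC00890 reached 1 FPKM only in the 2 libraries labelled E2A-KO at day 15, and LINC00092 only in the 2 WT libraries of day 3. Both are counted at those days, and all genes tested went through the same filter. All 4 of the members that peaked at day 3 under the label E2A-KO were among the 10 of WT. At day 7, 4 were shared (50% of those labelled E2A-KO and 57.1% of WT), and at day 15, 9 were (60% and 30%). No member that met the rule in both genotypes had its peak at different days. These overlaps, and the peaks kept below, were counted for members only. Without a share over all tested genes they cannot be called particular to the members. Under the label E2A-KO the rule gave 15 members without day 7 E2A-KO replicate 1, and likewise 15 without replicate 2. A peak was kept whichever library of its own genotype was left out for 10 of the 27 members under the label E2A-KO (2, 1 and 7 at days 3, 7 and 15) and for 26 of 47 in WT (6, 5 and 15).

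**Figure D1:**
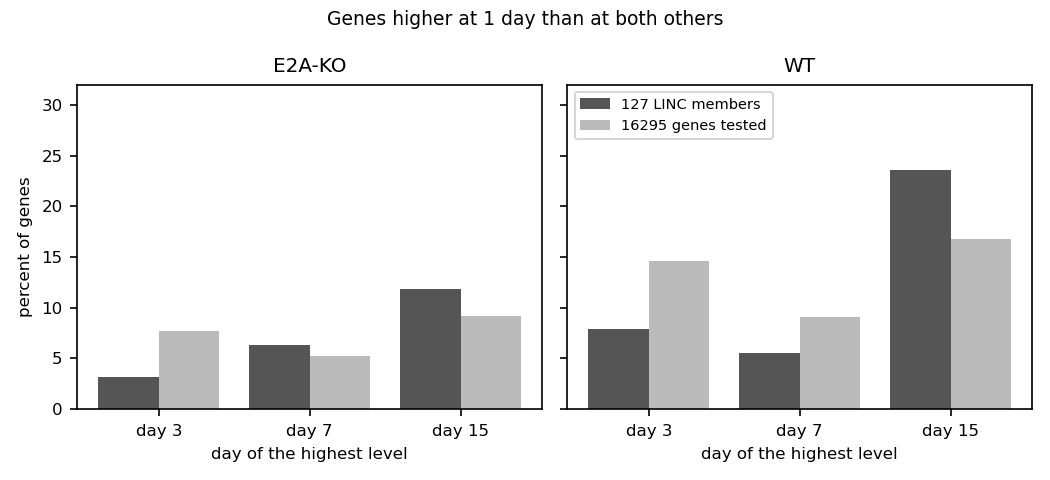
Bars give the percent of genes that were higher at 1 day than at both others, for the 127 LINC members (dark) and the 16295 genes tested (light), under the label E2A-KO on the left and in WT on the right. The tallest bars are those of day 15, at 11.8% of members under the label E2A-KO and 23.6% in WT.

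LINC01356 led the day 3 members. This gene, chr1:112820170-112850643 on the minus strand, lies between FAM19A3 and SLC16A1. Under the label E2A-KO it stood at 33.8 and 41.6 FPKM at day 3, 2.20 and 4.47 FPKM at day 7 and 0.373 and 0.244 FPKM at day 15. In WT it stood at 114 and 118 FPKM on day 3, 12.3 and 14.0 FPKM on day 7 and 1.33 and 1.72 FPKM on day 15. The days did not overlap in either genotype. From day 3 to day 7 it changed by -3.204 ± 0.23 on the log2 scale under the label E2A-KO (adjusted p = 4.4e-06) and by -3.05 ± 0.23 in WT (adjusted p = 2.8e-06). From day 7 to day 15 the changes were -1.68 ± 0.23 under the label E2A-KO and -2.48 ± 0.23 in WT, with adjusted p 0.00052 and 1.6e-05.

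LINC01124, chr2:170712451-170714567 on the minus strand, starts 0.8 kb from SP5, a target of Wnt signalling in embryonic cells, and on the other strand. It was also a day 3 member in both genotypes. At day 3 it read 3.81 and 4.35 FPKM under the label E2A-KO and 11.0 and 9.13 FPKM in WT. At day 7 these were 0.199 and 0.248 (E2A-KO) against 0.363 and 0.780 FPKM (WT), and at day 15 0.694 and 0.619 (E2A-KO) against 0.114 and 0.121 FPKM (WT). The change to day 7 was -2.05 ± 0.18 under the label E2A-KO and -2.82 ± 0.18 in WT (adjusted p 2.0e-05 and 8.9e-07). LINC01315 and LINC00337, which starts beside ICMT, completed the 4 shared members of day 3. LINC01315 read 15.1 and 17.1 FPKM on day 3, 8.01 and 10.2 FPKM on day 7 and 5.17 and 3.51 FPKM on day 15 under the label E2A-KO and 18.2 and 12.6 FPKM on day 3, 5.40 and 5.16 FPKM on day 7 and 1.27 and 0.605 FPKM on day 15 in WT. Its fall to day 7 under the label E2A-KO (-0.77 ± 0.24, adjusted p = 0.036) was no longer called without any 1 of the 4 libraries compared (-0.93 to -0.61), nor with scaling to nuclear genes (-0.68) or a pseudocount of 0.1 (-0.83). The same step of LINC00337 (-0.69 ± 0.21, adjusted p = 0.033) was lost without day 3 E2A-KO replicate 2 (-0.48) and without day 7 E2A-KO replicate 1 (-0.64) or 2 (-0.75), as well as with a pseudocount of 0.1 (-1.26) and with only the groups compared in the fit (adjusted p = 0.070). LINC00294, LINC00467 and LINC00941 were among the 5 largest falls from day 3 to day 7 in WT, with changes of -1.67 ± 0.16, -1.91 ± 0.29 and -1.89 ± 0.29. Under the label E2A-KO their changes over the same days were -0.43 ± 0.16, 0.36 ± 0.29 and -0.39 ± 0.29, none of them called (adjusted p 0.071, 0.39 and 0.35).

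At day 7 the shared members were LINC00511, LINC01106, LINC01123 and LINC02210. LINC00511, studied mostly in tumour cells, read 0.213 and 0.339 FPKM under the label E2A-KO and 0.323 and 0.166 FPKM in WT at day 3. At day 7 it read 2.96 and 3.77 (E2A-KO) against 2.96 and 3.68 FPKM (WT), and at day 15 2.17 and 1.09 (E2A-KO) against 0.801 and 0.577 FPKM (WT). At day 7 the libraries of both labels overlapped. The rise to day 7 was 1.77 ± 0.22 under the label E2A-KO and 1.79 ± 0.22 in WT (adjusted p 0.00023 and 0.00011). Its change from day 7 to day 15 under the label E2A-KO (-0.76 ± 0.22, adjusted p = 0.029) was not called without day 7 replicate 1 or 2 or day 15 replicate 2 (values without 1 library -1.06 to -0.46). LINC02210, on chromosome 17 where its exons overlap the readthrough gene LINC02210-CRHR1, was the most abundant of the 4. It read 40.8 and 41.8 FPKM on day 3, 78.4 and 63.1 FPKM on day 7 and 57.3 and 43.6 FPKM on day 15 under the label E2A-KO and 28.6 and 31.1 FPKM on day 3, 43.1 and 38.9 FPKM on day 7 and 17.1 and 19.97 FPKM on day 15 in WT. Its day 7 peak was lost without day 3 replicate 1 or 2, day 7 replicate 1 or day 15 replicate 2 under the label E2A-KO, and without day 3 or day 7 replicate 1 or 2 in WT.

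LINC01106 and LINC01123 are near-identical copies on chromosome 2, alike at 99.5% over 2256 aligned bases, and how reads that match both were counted is not given in the sources used here. Their levels are therefore uncertain one by one. LINC01106 read 0.693 and 0.927 FPKM at day 7 under the label E2A-KO and 3.09 and 3.24 FPKM in WT, and LINC01123 read 1.22 and 0.919 FPKM (E2A-KO) and 2.61 and 3.36 FPKM (WT). At day 3 both read between 0.0725 and 0.271 FPKM in all 4 libraries. Both stood lower under the label E2A-KO at day 7, with no overlap (-1.20 ± 0.17 and -0.94 ± 0.18, adjusted p 0.00034 and 0.0020). At day 15 they were lower too (-0.77 ± 0.17 and -0.78 ± 0.18, adjusted p 0.0057 and 0.0067). Under the label E2A-KO the step of LINC01106 to day 7 (0.62 ± 0.17) was not called without day 3 or day 7 replicate 2 (0.51 to 0.74 without 1 library), and that of LINC01123 (0.81 ± 0.18) without day 7 replicate 1 (0.71 to 0.92).

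Members at their highest on day 15 made up the largest group. LINC00893, LINC00342, LINC01125, LINC01697 and LINC00680 had the 5 largest rises from day 7 to day 15 in WT, between 2.34 ± 0.20 and 3.22 ± 0.38. At day 3 LINC00342 read 2.55 and 2.502 FPKM under the label E2A-KO and 1.37 and 1.02 FPKM in WT. At day 7 it read 3.22 and 3.49 (E2A-KO) against 1.37 and 1.29 FPKM (WT), and at day 15 5.95 and 7.40 (E2A-KO) against 13.3 and 13.4 FPKM (WT). The rise to day 15 was 0.81 ± 0.17 under the label E2A-KO and 2.62 ± 0.17 in WT (adjusted p 0.0053 and 1.8e-06). Before day 15 the libraries labelled E2A-KO lay above WT, and at day 15 below it. LINC00342 has a copy at 96.7% identity over 2185 bases. LINC00893, now EOLA1-DT, read 5.99 and 7.64 FPKM at day 15 under the label E2A-KO and 8.51 and 23.8 FPKM in WT, where the replicates lay far apart. It has 1035 bases in common with LINC00894 at 97.4% identity. LINC00969, now MIR570HG and host of a microRNA, was the most abundant of the shared day 15 members. It read 37.0 and 31.9 FPKM on day 3, 50.05 and 43.3 FPKM on day 7 and 68.3 and 62.8 FPKM on day 15 under the label E2A-KO and 24.4 and 22.6 FPKM on day 3, 21.9 and 27.5 FPKM on day 7 and 69.2 and 76.0 FPKM on day 15 in WT. Its step from day 7 to day 15 under the label E2A-KO (0.48 ± 0.14) was not called without day 7 replicate 2 or day 15 replicate 1 (0.38 to 0.59 without 1 library).

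The largest rise from day 7 to day 15 under the label E2A-KO was that of LINC01963. It read 3.09 and 2.40 FPKM at day 7 and 10.3 and 11.1 at day 15 under that label (1.65 ± 0.17, adjusted p = 8.7e-05), and 1.89 and 2.40 FPKM at day 7 and 6.71 and 6.30 FPKM at day 15 in WT (1.26 ± 0.17, adjusted p = 0.00016). LINC00963 and LINC01003 were highest at day 15 by the rule under the label E2A-KO and not in WT, where the change from day 7 to day 15 was not called (0.25 ± 0.21 and -0.38 ± 0.16, adjusted p 0.34 and 0.071). LINC01003, near KMT2C, read 0.461 and 0.369 FPKM on day 3, 1.36 and 1.10 FPKM on day 7 and 3.65 and 3.54 FPKM on day 15 under the label E2A-KO, against 0.209 and 0.106 FPKM on day 3, 4.04 and 4.11 FPKM on day 7 and 3.07 and 2.75 FPKM on day 15 in WT.

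Over all 127 members, 32 changed from day 3 to day 7 under the label E2A-KO (25.2%, background 28.6%), 28 up (background 17.3%) and 4 down (background 11.4%), and 41 in WT (32.3%, background 43.7%), 23 up (background 21.1%) and 18 down (background 22.6%). From day 7 to day 15, 31 changed under the label E2A-KO (24.4%, background 28.4%), 16 up (background 13.3%) and 15 down (background 15.1%), and 53 in WT (41.7%, background 52.3%), 38 up (background 25.5%) and 15 down (background 26.8%). Scaled to the sum of nuclear genes, that last split was 47 up and 10 down (82.5% up, in place of 71.7%). The median change of the members was 0.27 on the log2 scale from day 3 to day 7 under the label E2A-KO, against 0.06 for the median gene, and 0.27 from day 7 to day 15 in WT, against 0.01. Whichever library compared was left out, fewer members were called from day 3 to day 7 under the label E2A-KO. The calls over all tested genes fell too. Both held for the later step under that label without day 7 replicate 1 or 2.

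Between the genotypes, 22 members were called at day 3 (17.3%, background 23.6%), 54 at day 7 (42.5%, background 42%) and 35 at day 15 (27.6%, background 35.1%). At day 3, 9 were higher under the label E2A-KO (7.09%, background 9.51%) and 13 lower (10.2%, background 14.1%). At day 7, 40 were higher (31.5%, background 22.1%) and 14 lower (11%, background 19.9%). At day 15, 17 were higher (13.4%, background 18.9%) and 18 lower (14.2%, background 16.2%). The median member differed by 0.06, 0.24 and -0.09 on the log2 scale at the 3 days, and the median of all tested genes by -0.01, 0.06 and 0.03. The day 3 split was 13 higher and 12 lower (52% higher) with median-ratio scaling and 15 higher and 10 lower (60%) with scaling to nuclear genes, in place of 40.9% higher. The libraries of the genotypes did not overlap for 72 of the 127 members at day 3 (56.7%, background 65.7%), 83 at day 7 (65.4%, background 74.6%) and 74 at day 15 (58.3%, background 64.7%), the called members among them. Over the 3 days 53 members were called at none (41.7%, background 34.6%), 42 at 1 (33.1%, background 37%), 27 at 2 (21.3%, background 21.5%) and 5 at all 3 (3.94%, background 6.91%). Whichever library of the day was left out, fewer members were called at each day, and fewer of all tested genes too. Such a fit has 1 library in a group. Many calls of each day, and most of those at days 3 and 15, were lost without some library of the day.

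Some members met the level rule through 1 label. For 8 of the 127 fewer than 2 WT libraries reached 1 FPKM, and for 13 fewer than 2 libraries labelled E2A-KO did. The calls among the 8 were higher under the label E2A-KO (2, 6 and 3 at days 3, 7 and 15), and those among the 13 lower (3, 4 and 4). These directions are tied to how the members entered the set, and all genes tested went through the same filter. Of the members described below, LINC00599 and LINC01234 are among the 8, and LINC00092, LINC00884, LINC00941, LINC01106, LINC01123 and LINC01697 among the 13.

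Members at 10 FPKM or more were called more often than those under 2 FPKM at each day. At day 3, 6 of 55 members averaging under 2 FPKM were called (10.9%, background 11% at that level), and 5 of 16 averaging 10 FPKM or more (31.2%, background 29.4%). At day 7 these shares were 38.2% (background 27.7%) and 75% (background 48.7%), and at day 15 18.2% (background 21.6%) and 56.2% (background 42.5%).

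**Figure D2:**
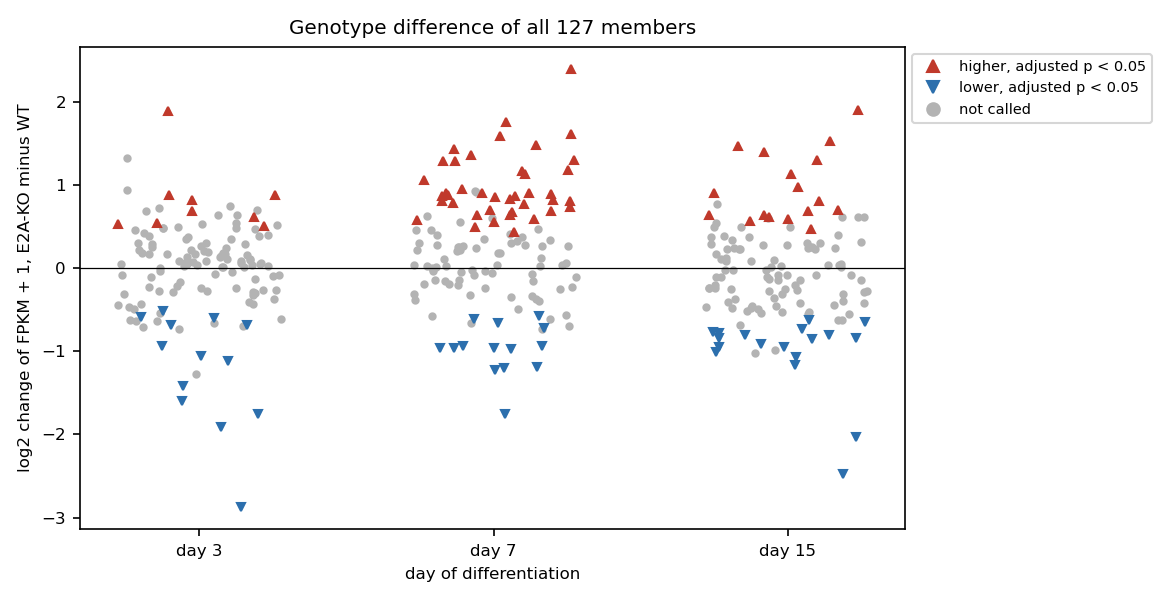
Each point is 1 of the 127 members, with its log2 change of FPKM + 1 (E2A-KO minus WT) on the vertical axis and the day on the horizontal axis, spread sideways for legibility. Upward triangles are the 9, 40 and 17 members called higher at days 3, 7 and 15, downward triangles the 13, 14 and 18 called lower, and grey points the rest.

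Among the members called at day 3, 7 falls and 1 rise exceeded 1 on the log2 scale. LINC00261, chr20:22547671-22578642 on the minus strand, lies 2.4 kb from FOXA2 and has been reported to promote FOXA2 expression as human stem cells form definitive endoderm. It read 1.10 and 0.00101 FPKM in the libraries labelled E2A-KO at day 3, against 12.3 and 7.46 FPKM in WT (-2.87 ± 0.58, adjusted p = 0.0057). At day 7 it read 8.19 and 4.02 FPKM (E2A-KO) against 7.88 and 3.95 (WT), and at day 15 2.44 and 0.00102 (E2A-KO) against 1.31 and 0.461 FPKM (WT). The genotypes stood apart at day 3 and overlapped at days 7 and 15 (0.03 ± 0.58 and 0.02 ± 0.58, adjusted p 0.97 and 0.99). Replicate 2 labelled E2A-KO was close to 0 at days 3 and 15 and replicate 1 was not. The exons of LINC00261 overlap those of AL121722.1 on the same strand. Of 6 endoderm markers fixed, FOXA2 among them, 4 were listed, and they summed to 33.3 and 36.8 FPKM under the label E2A-KO at day 3, against 135 and 137 FPKM in WT. SOX17, FOXA2 and FOXA1 lay below WT and APOA1 overlapped below 1 FPKM. Their part in the fall of LINC00261 was not tested.

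LINC01515, chr10:65570338-65768835 on the plus strand, read 0.894 and 1.01 FPKM at day 3 under the label E2A-KO, against 5.27 and 7.52 FPKM in WT. It read 2.36 and 5.05 (E2A-KO) against 4.97 and 3.13 FPKM (WT) at day 7 and 1.86 and 3.43 (E2A-KO) against 15.7 and 11.6 FPKM (WT) at day 15. The groups stood apart at days 3 and 15 and overlapped at day 7. Its changes were -1.91 ± 0.32, -0.14 ± 0.32 and -2.03 ± 0.32 (adjusted p 0.0023, 0.76 and 0.00094).

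LINC00941, a regulator of epidermal differentiation and a gene often raised in tumours, read 0.992 and 0.725 FPKM (E2A-KO) against 5.63 and 4.86 FPKM (WT) at day 3 (-1.75 ± 0.29, adjusted p = 0.0021). LINC01356 was lower by 1.60 at day 3 (adjusted p = 0.00094) and by 1.75 at day 7 (adjusted p = 0.00024), with SE 0.23 each and no overlap at either day. LINC00467 read 2.22 and 2.59 FPKM under the label E2A-KO and 8.26 and 7.86 FPKM in WT at day 3 (-1.41 ± 0.29, adjusted p = 0.0066). At day 7 it was on the other side, at 4.13 and 2.71 (E2A-KO) against 1.40 and 1.41 FPKM (WT) (0.86 ± 0.29, adjusted p = 0.037). That second call was lost without day 7 E2A-KO replicate 1 (0.63), without day 7 WT replicate 1 (0.86) or 2 (0.86) and with median-ratio scaling (0.79). LINC01124 fell at day 3 as well (-1.12 ± 0.18, adjusted p = 0.0019). LINC00092 (-1.06 ± 0.24, adjusted p = 0.011) and LINC00963 (-0.94 ± 0.21, adjusted p = 0.0087) completed the 8 largest falls. LINC00092 reached 1 FPKM in the 2 WT libraries of day 3 and in no other, so the group it fell against is the one through which it was kept. It lost its call without E2A-KO replicate 1 (-0.69) or WT replicate 1 (-1.0003), and LINC00963 without E2A-KO replicate 2 (-0.82) or WT replicate 1 (-0.92).

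LINC00173 stood out among the rises at day 3. It lies at chr12:116533422-116536518 on the plus strand, 11.6 kb from MAP1LC3B2, and has been linked to granulocyte formation in human blood cells. It read 3.83 and 4.34 FPKM under the label E2A-KO, against 0.0588 and 0.765 FPKM in WT (1.89 ± 0.33, adjusted p = 0.0026). At day 7 it read 6.57 and 5.11 (E2A-KO) against 1.90 and 0.400 FPKM (WT) (1.76 ± 0.33, adjusted p = 0.0018) and at day 15 5.43 and 5.87 (E2A-KO) against 4.04 and 3.41 FPKM (WT). The groups stood apart at each day, though the day 15 difference was not called (0.49 ± 0.33, adjusted p = 0.27). LINC00599, now MIR124-1HG, is the host of miR-124, a microRNA of neurons. It read 1.21 and 1.63 FPKM (E2A-KO) against 0.389 and 0.231 FPKM (WT) at day 3 and 1.25 and 1.01 (E2A-KO) against 0.502 and 0.229 FPKM (WT) at day 7, apart at both days, and reached 1 FPKM in these libraries labelled E2A-KO alone (0.88 ± 0.18 and 0.64 ± 0.18, adjusted p 0.0066 and 0.017). Its day 3 call was lost without E2A-KO replicate 2 (0.76) or WT replicate 2 (0.80), and its day 7 values without 1 library ran from 0.50 to 0.79, with the call lost without E2A-KO replicate 1 or WT replicate 2. Of 7 neural markers fixed, 5 were listed, and they summed to 249.8 and 270.3 FPKM under the label E2A-KO at day 3 against 243 and 244 FPKM in WT, and to 169 and 166 (E2A-KO) against 79.6 and 86.1 FPKM (WT) at day 7. TUBB3, which makes up most of the day 3 sum, was lower under the label E2A-KO at that day (148 and 163 FPKM, against 220.1 and 219 FPKM in WT), as was STMN2 (5.02 and 5.81 FPKM, against 17.8 and 18.9 FPKM in WT). The other 3 stood far above WT at day 3. FEZF1 read 28.7 and 32.3 FPKM (E2A-KO) against 1.13 and 0.437 FPKM (WT), SOX21 45.2 and 44.8 FPKM (E2A-KO) against 2.58 and 3.61 FPKM (WT), and MAP2 22.8 and 24.1 FPKM (E2A-KO) against 1.15 and 1.44 FPKM (WT). Their part in the values of LINC00599 was not tested.

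The other rises at day 3 were small. LINC01341 (0.88 ± 0.28, adjusted p = 0.048), LINC01963 (0.82 ± 0.17, 0.0066), LINC00342 (0.69 ± 0.17, 0.014), LINC01234 (0.61 ± 0.17, 0.027), LINC01772 (0.54 ± 0.16, 0.037) and LINC00969 (0.53 ± 0.14, 0.020) completed the 8 largest. All of these calls depended on single libraries. The calls of LINC01234 and LINC01772 were lost without any 1 of the 4 libraries (0.50 to 0.73 and 0.51 to 0.57). That of LINC01963 was lost without WT replicate 2 (0.75), that of LINC00342 without either E2A-KO replicate (0.68 and 0.70) or WT replicate 2 (0.58). LINC01341 lost its call without E2A-KO replicate 2 (0.52) or WT replicate 1 (0.81) or 2 (0.95), and LINC00969 without E2A-KO replicate 1 (0.43) or WT replicate 1 (0.59) or 2 (0.48). With only the groups compared in the fit LINC01341, LINC01234 and LINC01772 were not called (adjusted p 0.071, 0.055 and 0.068), and with the replicate block LINC01341 was not (adjusted p = 0.059).

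**Figure D3:**
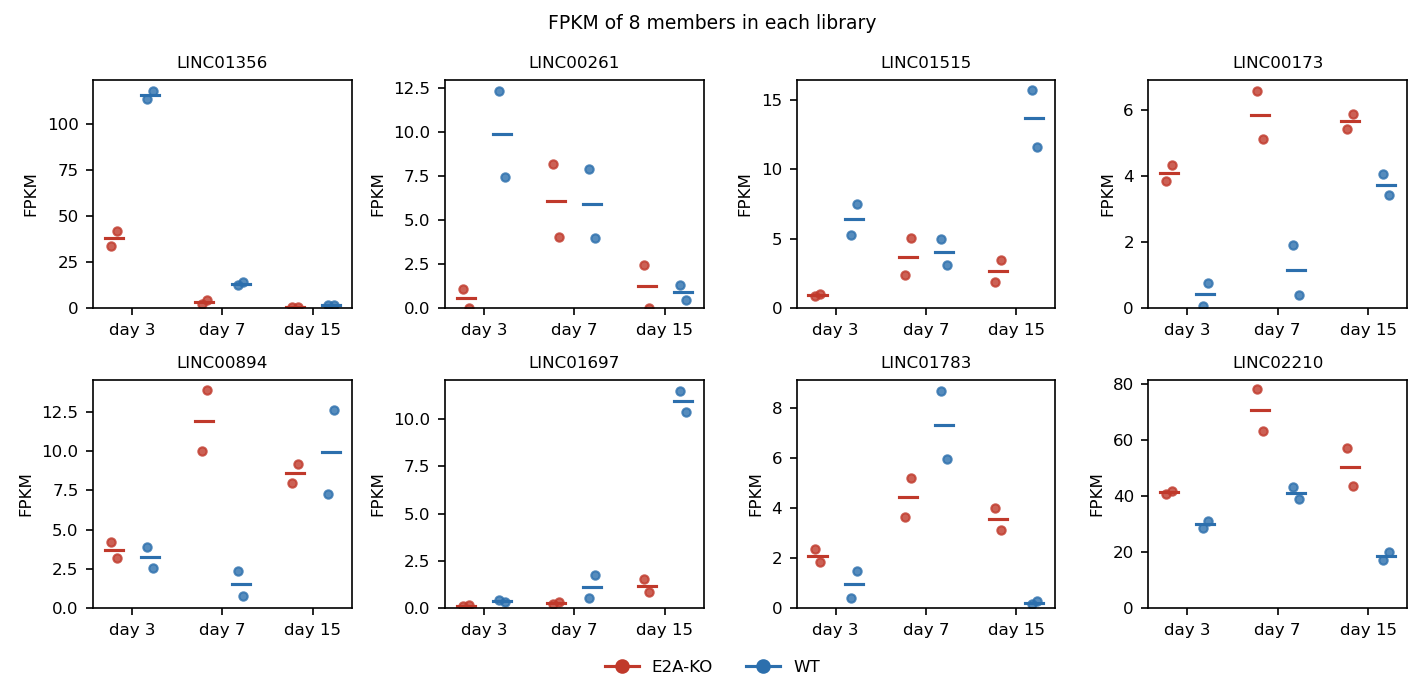
FPKM of 8 members in each library (points), with the mean of the 2 replicates as a line, labelled E2A-KO in red left of WT in blue at each day. LINC01356 lies lower under the label E2A-KO at all 3 days and LINC01697 reaches 11.5 and 10.4 FPKM in WT at day 15.

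Day 7 held the most rises. LINC00894, now EOLA2-DT on the X chromosome, read 10.001 and 13.9 FPKM in the libraries labelled E2A-KO, against 2.33 and 0.778 FPKM in WT (2.39 ± 0.33, adjusted p = 0.00030). At day 3 it read 4.19 and 3.21 (E2A-KO) against 3.90 and 2.57 FPKM (WT) and at day 15 8.01 and 9.19 (E2A-KO) against 7.25 and 12.7 FPKM (WT), and the groups overlapped at both days. LINC00174, which shares 744 bases at 95.4% identity with SKP1, read 15.1 and 12.5 FPKM (E2A-KO) against 3.24 and 4.45 FPKM (WT) at day 7 (1.61 ± 0.17, adjusted p = 5.6e-05). Its other days read 11.4 and 11.3 (E2A-KO) against 10.4 and 10.1 FPKM (WT) and 17.5 and 14.0 (E2A-KO) against 14.6 and 14.6 FPKM (WT). In both members the WT libraries of day 7 were the lowest of all groups. The same held for LINC00852, at 2.45 and 2.74 (E2A-KO) against 0.422 and 0.501 FPKM (WT) at day 7 (1.30 ± 0.22, adjusted p = 0.0011), and for LINC01238, at 3.51 and 2.12 (E2A-KO) against 0.157 and 0.348 FPKM (WT) (1.59 ± 0.32, adjusted p = 0.0028).

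LINC00854, now listed as the coding gene CCDC200, read 11.97 and 13.1 FPKM (E2A-KO) against 2.73 and 5.33 FPKM (WT) at day 7 and 11.3 and 8.88 (E2A-KO) against 1.86 and 4.11 FPKM (WT) at day 15. The groups stood apart at both days (1.48 ± 0.33 and 1.52 ± 0.33, adjusted p 0.0047 and 0.0049). At day 3 they overlapped, at 6.16 and 6.51 (E2A-KO) against 8.25 and 4.79 FPKM (WT). Its exons overlap those of TMEM106A on the other strand, and the strand setting of the counting is not given in the sources used here. LINC01896 (1.43 ± 0.40, adjusted p = 0.016) and LINC01002 (1.35 ± 0.49, adjusted p = 0.047) were also among the 8 largest rises. LINC01896 lost that call without E2A-KO replicate 2 (1.30) or WT replicate 1 (0.98). LINC01002 lost it without any 1 of the 4 libraries (1.05 to 1.65), and it belongs to a family with many copies, FAM157A among them at 97.5% identity over 1612 bases. LINC01002 was not called with median-ratio scaling (1.27), a pseudocount of 0.1 (1.46) or the replicate block (adjusted p = 0.051) either.

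Falls at day 7 were led by LINC01356. LINC01503, an oncogenic transcript of squamous cell carcinomas, read 0.548 and 0.516 FPKM under the label E2A-KO and 2.47 and 2.69 FPKM in WT (-1.22 ± 0.37, adjusted p = 0.022), and its call was lost without any 1 of the 4 libraries (-1.27 to -1.18). LINC01003 read 1.36 and 1.10 FPKM (E2A-KO) against 4.04 and 4.11 FPKM (WT) (-1.19 ± 0.16, adjusted p = 0.00027). LINC00997 read 1.05 and 1.01 (E2A-KO) against 2.98 and 3.001 FPKM (WT) (-0.97 ± 0.18, adjusted p = 0.0019) and stayed lower at day 15, at 1.96 and 2.49 (E2A-KO) against 4.89 and 4.70 FPKM (WT) (-0.85 ± 0.18, adjusted p = 0.0051). LINC01569, between SRL and TFAP4, read 0.770 and 0.552 (E2A-KO) against 2.21 and 2.26 FPKM (WT) (-0.96 ± 0.17, adjusted p = 0.0011). LINC00888, now SNHG33, a host of small nucleolar RNA, read 15.4 and 22.5 (E2A-KO) against 37.6 and 37.0 FPKM (WT) (-0.96 ± 0.18, adjusted p = 0.0019). LINC00963 read 5.97 and 6.45 (E2A-KO) against 13.8 and 12.3 FPKM (WT) (-0.96 ± 0.21, adjusted p = 0.0040). In all of these the groups stood apart at day 7. The WT libraries of LINC01003, LINC00997 and LINC01569 had risen from day 3 by 2.13 ± 0.16, 1.52 ± 0.18 and 1.30 ± 0.17 on the log2 scale, and those labelled E2A-KO differed from day 3 by 0.65 ± 0.16, 0.36 ± 0.18 and 0.29 ± 0.17 (adjusted p 0.012, 0.17 and 0.22). The call of LINC01003 among these was lost without day 3 replicate 2 or day 7 replicate 1 labelled E2A-KO (0.57 to 0.74 without 1 library).

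At day 15 the largest fall was that of LINC01697, chr21:28048404-28137611 on the plus strand. It read 1.53 and 0.820 FPKM under the label E2A-KO, against 11.5 and 10.4 FPKM in WT (-2.48 ± 0.27, adjusted p = 9.4e-05). Earlier it was below 2 FPKM in all libraries, at 0.127 and 0.128 (E2A-KO) against 0.433 and 0.307 FPKM (WT) at day 3 and 0.216 and 0.294 (E2A-KO) against 0.507 and 1.74 FPKM (WT) at day 7. From day 7 to day 15 it changed by 0.77 ± 0.27 under the label E2A-KO (adjusted p = 0.052) and by 2.55 ± 0.27 in WT (adjusted p = 3.0e-05). LINC01515 came next. LINC00680, which shares 1084 bases at 97.3% identity with GUSBP1, read 1.92 and 1.99 FPKM (E2A-KO) against 4.25 and 5.70 FPKM (WT) at day 15 (-1.004 ± 0.20, adjusted p = 0.0035) and 1.13 and 1.41 (E2A-KO) against 0.0317 and 0.322 FPKM (WT) at day 7 (0.96 ± 0.20, adjusted p = 0.0036). With a pseudocount of 0.1 its day 15 difference was not called (-1.29). LINC00884, now ATP13A3-DT, read 0.886 and 0.584 (E2A-KO) against 2.93 and 2.32 FPKM (WT) (-1.06 ± 0.18, adjusted p = 0.0014), and LINC00342 was lower by 0.91 (SE 0.17, adjusted p = 0.0022).

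LINC01405, now VHRT, is a transcript enriched in the human heart that lies 15.9 kb from MYL2, the ventricular myosin light chain gene. It read 4.52 and 6.86 FPKM under the label E2A-KO and 10.2 and 6.203 FPKM in WT at day 3. Its day 7 level was 4.45 and 2.26 FPKM (E2A-KO) and 3.82 and 1.503 FPKM (WT), and at day 15 2.71 and 1.62 FPKM (E2A-KO) and 6.74 and 5.32 FPKM (WT). The groups overlapped at days 3 and 7 and stood apart at day 15 (-1.17 ± 0.37, adjusted p = 0.032). The call was lost without E2A-KO replicate 2 (-0.91) or WT replicate 1 (-1.02) or 2 (-1.31). The part of the cardiomyocyte markers, given above, in this value was not tested. LINC00116 (-0.95 ± 0.28, adjusted p = 0.022) lost its call without E2A-KO replicate 1 (-0.86) or WT replicate 2 (-0.57), and LINC01356 (-0.95 ± 0.23, adjusted p = 0.0098) without WT replicate 2 (-0.84).

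Among the rises at day 15 LINC01783 was the largest. It read 3.99 and 3.11 FPKM under the label E2A-KO, against 0.174 and 0.259 FPKM in WT (1.90 ± 0.28, adjusted p = 0.00064). At day 3 it read 2.34 and 1.84 (E2A-KO) against 0.400 and 1.48 FPKM (WT) and at day 7 3.65 and 5.19 (E2A-KO) against 8.69 and 5.94 FPKM (WT). Its WT libraries were highest at day 7 and close to 0 at day 15, whereas no difference between these days was called under the label E2A-KO (-0.24 ± 0.28, adjusted p = 0.56). It has a copy at 98.0% identity over 1548 bases and overlaps RNU1-6P on the same strand. LINC02210 was higher by 1.39 at day 15 (SE 0.16, adjusted p = 0.00012) and by 0.77 at day 7 (SE 0.16, adjusted p = 0.0030). LINC01315 read 5.17 and 3.51 FPKM (E2A-KO) against 1.27 and 0.605 FPKM (WT) at day 15 (1.47 ± 0.24, adjusted p = 0.0011). LINC00950, now the coding gene TMEM8B, read 2.33 and 1.64 (E2A-KO) against 0.537 and 0.476 FPKM (WT) (0.98 ± 0.18, adjusted p = 0.0022), and its exons overlap those of HINT2 on the other strand. All 4 stood apart from WT. LINC01896, LINC01355 and LINC01719 completed the 8 (1.30 ± 0.40, 1.13 ± 0.36 and 0.90 ± 0.29, adjusted p 0.029, 0.031 and 0.034). Each of these 3 calls was lost without any of 3 libraries of the day, with LINC01896 at 0.62 without E2A-KO replicate 1, 1.46 without WT replicate 1 and 1.13 without WT replicate 2. LINC01355 stood at 0.88, 1.33 and 0.93 without the same libraries, and LINC01719 at 1.06 without E2A-KO replicate 1, 0.75 without E2A-KO replicate 2 and 0.69 without WT replicate 1. LINC01896 was not called with only the groups compared in the fit (adjusted p = 0.055), nor LINC01355 with a pseudocount of 0.1 (1.33).

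**Figure D4:**
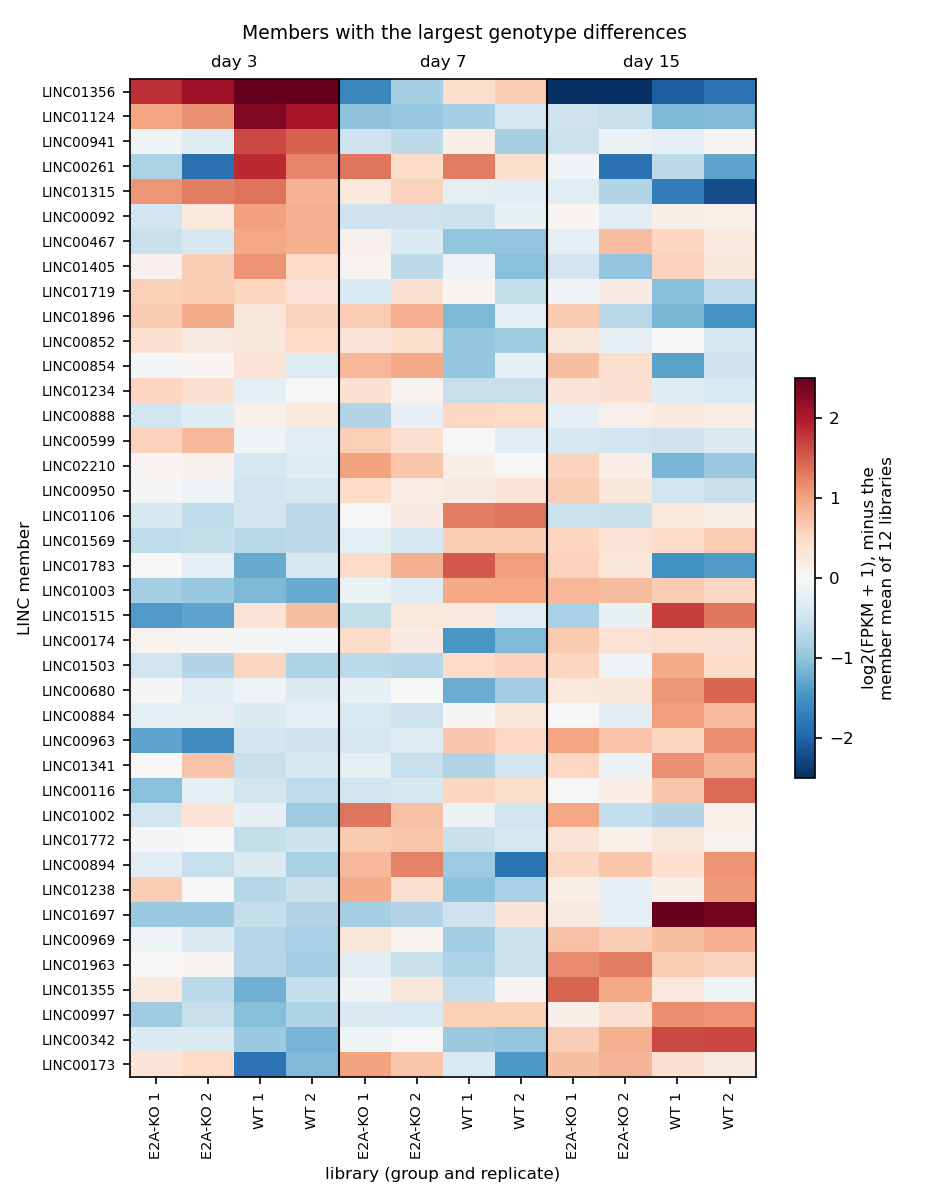
Rows are the members among the 8 largest rises or falls of a day, columns the 12 libraries by day with the label E2A-KO left of WT, and colour the log2(FPKM + 1) minus the member's mean over 12 libraries, cut at 2.5 either way. Rows are sorted by the day of the highest WT mean, so the red blocks of WT move from day 3 at the top (LINC01356, LINC01124) to day 15 further down (LINC01697, LINC00342).

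The 5 members called at all 3 days, named after their values were seen, were LINC01356, LINC00493, LINC01089, LINC01234 and LINC00342. LINC01356 and LINC00493 were lower each time. LINC00493, now SMIM26, encodes a small mitochondrial membrane protein. It read 39.5 and 44.1 FPKM under the label E2A-KO against 55.7 and 65.4 FPKM in WT at day 3, 35.8 and 34.2 (E2A-KO) against 60.0 and 51.9 (WT) at day 7 and 38.5 and 28.8 (E2A-KO) against 57.4 and 63.3 (WT) at day 15. Its differences were -0.52 ± 0.15, -0.66 ± 0.15 and -0.84 ± 0.15 (adjusted p 0.031, 0.0060 and 0.0020). LINC01089, described as a suppressor of tumour cell growth, was higher each time. It read 16.9 and 15.7 (E2A-KO) against 10.4 and 12.02 FPKM (WT) at day 3, 28.1 and 25.5 (E2A-KO) against 13.6 and 14.6 (WT) at day 7 and 21.8 and 18.0 (E2A-KO) against 12.8 and 15.3 (WT) at day 15 (0.50 ± 0.15, 0.88 ± 0.15 and 0.47 ± 0.15, adjusted p 0.033, 0.0010 and 0.031). LINC01234, which reached 1 FPKM in no WT library and was kept through those labelled E2A-KO, was also higher each time, at 1.02 and 0.654 (E2A-KO) against 0.0410 and 0.0417 FPKM (WT) at day 7 and 0.929 and 1.02 (E2A-KO) against 0.250 and 0.184 FPKM (WT) at day 15 (0.81 ± 0.17 and 0.70 ± 0.17, adjusted p 0.0038 and 0.010). LINC00342 was higher at days 3 and 7 and lower at day 15. At day 3 the calls of LINC00493 and LINC01089 were lost without any 1 of the 4 libraries (-0.64 to -0.41 and 0.41 to 0.60), and with scaling to nuclear genes LINC00493 was not called there (-0.35). LINC00493 at day 7 also lost its call without WT replicate 1 (-0.56). LINC01089 at day 15 lost it without E2A-KO replicate 1 or WT replicate 1 (0.34 to 0.60 over the 4), and LINC01234 at day 15 without WT replicate 2 (0.66).

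Of the 4 members named whatever they showed, LINC00667 was not called at any day. It read 7.33 and 6.78 (E2A-KO) against 7.21 and 11.1 FPKM (WT) at day 3, 8.97 and 9.44 (E2A-KO) against 7.93 and 6.93 (WT) at day 7 and 14.0 and 16.4 (E2A-KO) against 11.4 and 12.1 (WT) at day 15. Its differences were -0.31 ± 0.19, 0.28 ± 0.19 and 0.34 ± 0.19 (adjusted p 0.27, 0.26 and 0.18). Its libraries overlapped at day 3 and not at day 7 or day 15.

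The genotype difference itself changed between days for some members. Between days 3 and 7, 20 members had a different genotype effect (15.7%, background 20.2%), 13 with a higher value at day 7 (10.2%, background 11.3%) and 7 with a lower one (5.51%, background 8.9%). Between days 7 and 15, 27 did (21.3%, background 31.7%), 8 with a higher value at day 15 (6.3%, background 16.6%) and 19 with a lower one (15%, background 15.2%). Both steps use the day 7 libraries. LINC00894 had a difference of 2.23 at the first step and -2.54 at the second, and LINC01515 had 1.77 and -1.89. LINC01783 had -1.34 and 2.51, and LINC01003 had -1.48 and 1.42. The first step of LINC01515 was not called without day 3 E2A-KO replicate 1 (1.72) or 2 (1.81), day 3 WT replicate 2 (1.55), day 7 E2A-KO replicate 2 (1.34) or day 7 WT replicate 2 (1.5003). That of LINC01783 was not called without day 3 E2A-KO replicate 1 (-1.22) or 2 (-1.46), day 3 WT replicate 1 (-0.92), or day 7 replicate 1 labelled E2A-KO (-1.13) or WT (-1.10). Without any 1 of the libraries compared the first count was lower, and so was that of all tested genes.

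Genes beside members were read from GENCODE release 29 on GRCh38, where 123 of 127 members were placed, 110 of them with a protein-coding gene within 100 kb. Each member was paired with its nearest tested coding gene within that distance, a gene that overlaps it included. Of the 95 with such a gene, 18 were called at day 3, and in 3 of these the nearest gene was called too, each time in the same direction. At day 7 the nearest gene was called for 15 of 40 called members (7 in the same direction, 8 opposite), and at day 15 for 12 of 24 (8 and 4). Over all tested genes the called share at the 3 days was 23.6%, 42% and 35.1%. The 4 pairs described next were picked as examples, by no rule set beforehand, and do not stand for the rest. FOXA2, a pioneer transcription factor of endoderm and floor plate, read 9.10 and 8.32 FPKM under the label E2A-KO against 47.0 and 46.3 FPKM in WT at day 3, 21.5 and 20.8 (E2A-KO) against 68.8 and 72.8 (WT) at day 7 and 5.85 and 4.86 (E2A-KO) against 5.45 and 6.96 (WT) at day 15. It was lower at days 3 and 7 (-2.30 ± 0.14 and -1.70 ± 0.14, adjusted p 7.1e-06 and 1.6e-05), whereas LINC00261 beside it overlapped between genotypes at day 7.

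SP5, beside LINC01124, read 54.3 and 67.1 (E2A-KO) against 136 and 139 FPKM (WT) at day 3, 9.497 and 11.4 (E2A-KO) against 10.2 and 9.89 (WT) at day 7 and 5.36 and 5.54 (E2A-KO) against 2.85 and 3.55 (WT) at day 15. Its differences were -1.18 ± 0.15, 0.04 ± 0.15 and 0.62 ± 0.15 (adjusted p 0.00044, 0.84 and 0.0088), and those of LINC01124 -1.12 ± 0.18, -0.35 ± 0.18 and 0.57 ± 0.18 (adjusted p 0.0019, 0.15 and 0.035). Both were lower at day 3 and higher at day 15. The 6 mesoderm and primitive streak markers summed to 257 and 224 FPKM at day 3 under the label E2A-KO, against 683 and 678 FPKM in WT, with 5 of them below WT and KDR above it, and their part in these values was not tested. At day 15 the call of LINC01124 was lost without any 1 of the 4 libraries (0.53 to 0.60) and that of SP5 without WT replicate 1 (0.50). SALL3, a zinc finger transcription factor gene 1.2 kb from LINC01896, read 27.4 and 24.7 (E2A-KO) against 15.05 and 14.8 FPKM (WT) at day 3, 12.1 and 11.8 (E2A-KO) against 5.24 and 6.21 (WT) at day 7 and 4.29 and 3.45 (E2A-KO) against 0.831 and 1.01 (WT) at day 15. It was higher at all 3 days (0.76 ± 0.16, 0.95 ± 0.16 and 1.34 ± 0.16, adjusted p 0.0062, 0.00088 and 0.00016), and its day 3 call was lost without E2A-KO replicate 1 (0.69). LINC01896 read 5.69 and 7.08 (E2A-KO) against 4.25 and 5.30 FPKM (WT) at day 3, 5.66 and 6.97 (E2A-KO) against 0.966 and 2.70 (WT) at day 7 and 5.72 and 1.65 (E2A-KO) against 0.925 and 0.532 (WT) at day 15, apart from WT at each day and called at days 7 and 15.

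CHD2, the chromatin remodeller gene 0.5 kb from LINC01578, read 52.9 and 39.3 (E2A-KO) against 24.2 and 28.3 FPKM (WT) at day 3, 49.2 and 52.8 (E2A-KO) against 51.6 and 46.2 (WT) at day 7 and 55.5 and 76.9 (E2A-KO) against 101 and 102 (WT) at day 15. It was higher at day 3 (0.78 ± 0.18, adjusted p = 0.0099) and lower at day 15 (-0.63 ± 0.18, adjusted p = 0.018). LINC01578 was called at neither day. The day 3 call of CHD2 was lost without E2A-KO replicate 1 or WT replicate 1 (0.57 to 0.99 over the 4 libraries), and its day 15 call without E2A-KO replicate 1 or either WT replicate (-0.86 to -0.40).

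**Figure D5:**
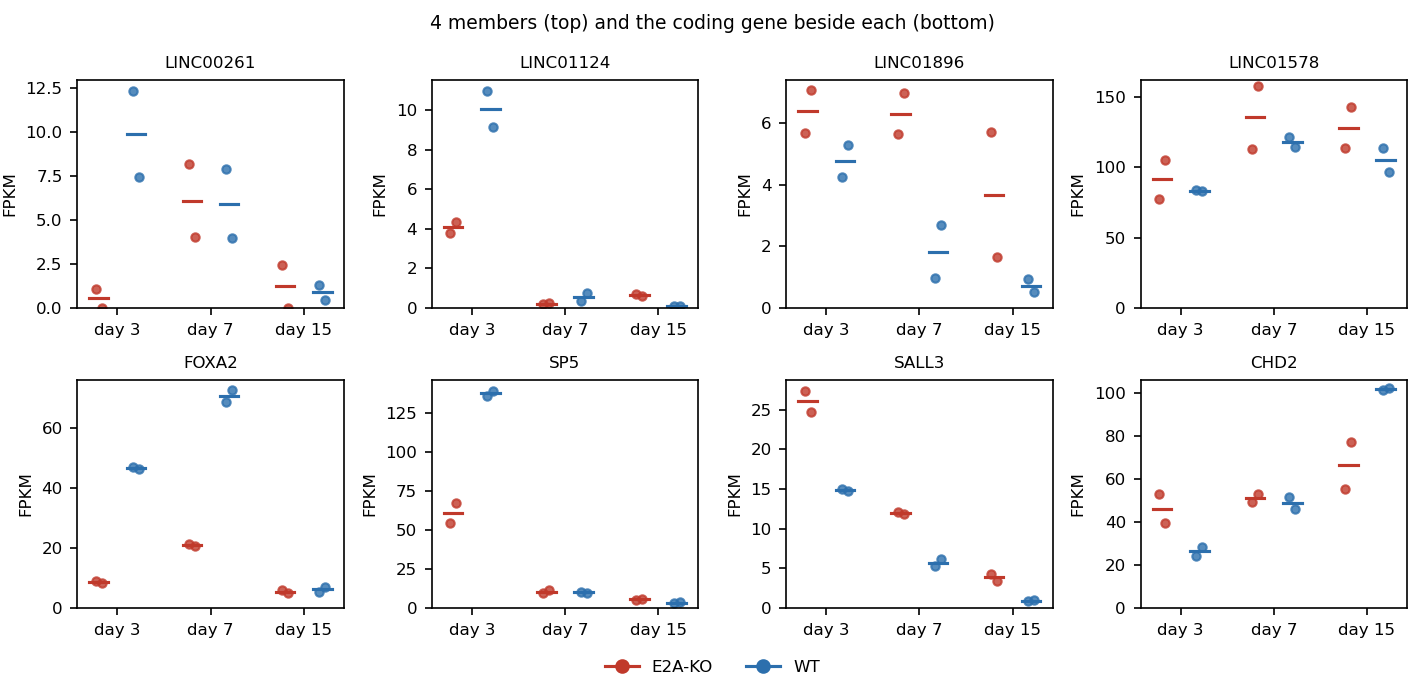
FPKM in each library (points) and the mean of 2 replicates (lines) for 4 members in the upper row and the coding gene beside each in the lower row, labelled E2A-KO in red left of WT in blue at each day. FOXA2 stays lower under the label E2A-KO at day 7, at 21.5 and 20.8 FPKM, where LINC00261 overlaps with WT.

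Not all members are intergenic or non-coding by current records. RefSeq now lists 11 of the 127 as protein-coding and 29 under another symbol. Besides LINC00493, LINC00854 and LINC00950 these include LINC00116, now MTLN, which encodes mitoregulin of the inner mitochondrial membrane, and LINC00998, now SMIM30, which encodes a small membrane protein. LINC00116 read 10.3 and 11.2 FPKM (E2A-KO) against 22.4 and 20.8 FPKM (WT) at day 7 (-0.94 ± 0.28, adjusted p = 0.019) and 15.2 and 17.3 (E2A-KO) against 24.6 and 42.2 FPKM (WT) at day 15. LINC00998 read 14.4 and 14.2 (E2A-KO) against 21.9 and 26.8 FPKM (WT) at day 7 and 21.5 and 21.9 (E2A-KO) against 41.3 and 32.4 FPKM (WT) at day 15 (-0.72 ± 0.16 and -0.73 ± 0.16, adjusted p 0.0051 and 0.0058). In both the groups stood apart at each of these days. The day 7 call of LINC00116 was lost without any 1 of the 4 libraries (-0.997 to -0.89). The calls of LINC00998 were lost without WT replicate 2 at day 7 (-0.58) and without WT replicate 1 at day 15 (-0.56). The exons of 63 of the 123 placed members overlap another gene, 26 of them a gene listed in these files, and 18 members start within 1 kb of a coding gene on the other strand. Of the 123 members, 21 share at least 500 bases at 95% identity or more with a gene elsewhere, which leaves their own level uncertain.

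Better known long non-coding RNAs with other symbols were read beside them, from a list of 35 of which 25 were listed and tested. Of these, 8 were higher (background 9.51%) and 2 lower (background 14.1%) under the label E2A-KO at day 3. At day 7, 6 were higher (background 22.1%) and 5 lower (background 19.9%), and at day 15, 9 higher (background 18.9%) and 8 lower (background 16.2%). These backgrounds cover all levels, and many genes of the list are abundant. Among all genes at 10 FPKM or more, 29.4%, 48.7% and 42.5% were called in either direction at the 3 days. The day 3 calls of MALAT1 (higher) and CRNDE (lower) were close to the threshold (adjusted p 0.048 and 0.0498). MIAT, first described in myocardial infarction and abundant in neural cells, read 85.8 and 67.5 FPKM (E2A-KO) against 14.1 and 12.1 FPKM (WT) at day 3, 33.8 and 28.2 (E2A-KO) against 1.55 and 2.28 (WT) at day 7 and 9.81 and 8.30 (E2A-KO) against 0.753 and 0.850 (WT) at day 15 (2.45 ± 0.19, 3.46 ± 0.19 and 2.48 ± 0.19, adjusted p 2.4e-05, 1.0e-06 and 1.2e-05). H19, an imprinted transcript of embryonic mesoderm and endoderm, read 332 and 296 FPKM (E2A-KO) against 1123 and 1299 FPKM (WT) at day 15 and was lower at all 3 days (-0.83 ± 0.13, -1.21 ± 0.13 and -1.94 ± 0.13, adjusted p 0.0018, 8.0e-05 and 6.9e-06). ESRG, a transcript of human pluripotent cells, was higher at days 3 and 7 (1.54 ± 0.15 and 1.27 ± 0.15, adjusted p 0.00011 and 0.00013) and below 0.2 FPKM in all libraries of day 15. CARMN, a regulator of cardiac and smooth muscle differentiation, read 3.58 and 3.97 (E2A-KO) against 9.23 and 11.0 FPKM (WT) at day 15 and was lower at days 7 and 15 (-1.15 ± 0.20 and -1.22 ± 0.20, adjusted p 0.0013 and 0.0012). In each of these calls the groups stood apart.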

How the data were processed

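RNA was sequenced from 12 libraries, 2 for each genotype and day. The deposited FPKM values are 1 per gene and library and were used as the authors made them. Per the submitters' processing notes, BWA and hg38 (GRCh38) were used. The sources used here name neither the program that made the values nor its annotation or strand setting. The unit was read from the values. Every listed gene is above 0 in all 12 libraries. A search for the steps of whole fragments in low values of 863 genes with 1 transcript gave 6.9 to 19.05 fragments per kb at 1 FPKM, and 45.5% to 66.7% of the 16 to 79 values used in each library came out whole to a tolerance of 0.1. Nearly all would be needed, so the depth was taken as not recovered, no read counts were rebuilt and no counting intervals are given.

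Genes at 1 FPKM or more in at least 2 libraries were tested with limma 3.58.1 in R 4.3.3, with an intensity trend, on log2(FPKM + 1), with 6 group means and 6 residual degrees of freedom. Tests were two-sided, adjusted after Benjamini and Hochberg over 16295 genes, with a threshold of 0.05. Named members were the 8 largest rises and 8 largest falls per day between genotypes, and the 5 largest per step between days. They also included the 4 largest differences of differences each way, the highest stage members, the 5 of highest mean, and 4 fixed symbols. The list of fixed symbols was longer, and its other symbols were not members. Members and lists were chosen with earlier results of these data known. Gene places came from GENCODE release 29, windows and current symbols from RefSeq, and copies from blastn 2.17.0. Alternatives were other scalings, filters, pseudocount, trend, samples in the fit, a replicate block and leaving out each library.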

Additional observations from a re-analysis of the deposited data

Results flagged for a closer look

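The genotype difference (E2A-KO minus WT) of 12 members was set apart because it differed between days in limma's test of that difference, with 2 libraries per group. Values are on the log2(FPKM + 1) scale with standard error and adjusted p over all genes. From day 3 to day 7 the genotype difference moved up for LINC00261 by 2.91 ± 0.82 (adjusted p = 0.031), LINC00467 by 2.27 ± 0.42 (0.0042), LINC00894 by 2.23 ± 0.47 (0.0083) and LINC01515 by 1.77 ± 0.46 (0.022). Over the same step the movement was -1.48 ± 0.23 for LINC01003 (adjusted p = 0.0017), -1.34 ± 0.40 for LINC01783 (0.040), -1.25 ± 0.24 for LINC01106 (0.0053) and -1.16 ± 0.26 for LINC00997 (0.012). Of these calls, LINC00261 was lost without day 3 E2A-KO replicate 2 (2.38), day 3 WT replicate 1 (2.58), day 7 E2A-KO replicate 1 (2.47) or day 7 WT replicate 2 (2.49), and with a pseudocount of 0.1 (4.84). LINC01515 lost its call without day 3 E2A-KO replicate 1 (1.72) or 2 (1.81), day 3 WT replicate 2 (1.55), day 7 E2A-KO replicate 2 (1.34) or day 7 WT replicate 2 (1.5003). LINC01783 lost its call without day 3 E2A-KO replicate 1 (-1.22) or 2 (-1.46), day 3 WT replicate 1 (-0.92), day 7 E2A-KO replicate 1 (-1.13) or day 7 WT replicate 1 (-1.10), with a pseudocount of 0.1 (-2.002) and with only the groups compared in the fit (adjusted p = 0.059). LINC00997 lost its call without day 3 WT replicate 1 (-1.02), and LINC01106 with a pseudocount of 0.1 (-2.04).

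From day 7 to day 15 it moved by 2.51 ± 0.40 for LINC01783 (adjusted p = 0.0013), 1.42 ± 0.23 for LINC01003 (0.0013), 0.97 ± 0.29 for LINC00963 (0.028) and 0.94 ± 0.26 for LINC00950 (0.018). It moved by -2.54 ± 0.47 for LINC00894 (adjusted p = 0.0026), -2.21 ± 0.45 for LINC01238 (0.0046), -1.96 ± 0.28 for LINC00680 (0.00076) and -1.89 ± 0.46 for LINC01515 (0.011). Both steps use the day 7 libraries. LINC00950 lost its call without day 7 E2A-KO replicate 2 (0.81) or day 7 WT replicate 2 (0.89). LINC00963 lost its call without any library of day 7 or without day 15 E2A-KO replicate 1 or WT replicate 1 (0.66 to 1.28 over the 8 libraries), and with scaling to nuclear genes (0.79). LINC00680 was called at both days with opposite signs, at -1.004 on day 15 and 0.96 on day 7.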

How the results depend on the processing

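With a filter of 5 FPKM in at least 2 libraries, only 57 members were in the fit, among 12460 genes. Between genotypes 28 members were called at day 7 (5873 of all genes) and 23 at day 15 (5132 of all genes). From day 3 to day 7, 17 were called under the label E2A-KO (4209 of all genes) and 23 in WT (6169). From day 7 to day 15 these were 19 (E2A-KO, 4067 of all genes) and 29 (WT, 7136). The genotype difference between days gave 9 and 16 members (3047 and 4532 of all genes). Members highest at 1 day numbered 17 (E2A-KO) and 23 (WT). With only the groups compared in the fit, 15 members were called from day 7 to day 15 under the label E2A-KO, against 31. Over all tested genes 2054 were called, against 4628, so the drop was not particular to the members. Its cause was not tested. Leaving out each library in turn gave 11 to 13 calls at day 3, 33 to 38 at day 7 and 23 to 33 at day 15, 16 to 21 (E2A-KO) and 29 to 34 (WT) from day 3 to day 7, and 19 to 31 (E2A-KO) and 39 to 47 (WT) from day 7 to day 15. The genotype difference between days gave 11 to 15 and 18 to 29, and members highest at 1 day 15 to 24 (E2A-KO) and 34 to 42 (WT). Fewer libraries were in those fits. Scaling to nuclear genes moved the median of all genes from -0.01 to 0.12 at day 3 and from 0.06 to 0.22 at day 7.

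Among the named members, signs turned for 4 values, none of which was called. LINC00261 at day 7 (0.03) was -0.043 with median-ratio scaling and -0.40 to 0.47 without 1 library. At day 15 (0.02) it was -0.00759 with median-ratio scaling, -0.00850 with nuclear scaling, -0.81 with a pseudocount of 0.1, and -0.88 to 0.91 without 1 library. LINC01405 at day 7 (0.28) was -0.19 to 0.75, and LINC00467 at day 15 (-0.14) was -0.65 to 0.37, without 1 library. The causes were not tested. Same-numbered libraries of the genotypes did not deviate together, and the labels give no meaning to the numbers. Over 15 pairs of groups the correlations of deviations ran from -0.12 to 0.21, and the 3 over 0.1 were those of the E2A-KO groups with each other (0.155 for days 3 and 7, 0.103 for days 3 and 15, 0.206 for days 7 and 15). The replicate block gave 30 and 31 calls for the steps to day 7 and to day 15 under the label E2A-KO, against 32 and 31, and ended the call of LINC01355 (adjusted p = 0.051) and of LINC00479 (adjusted p = 0.052) at the later step. It gave 21, 52 and 33 calls between genotypes at days 3, 7 and 15, and 34 at day 15 with the numbers labelled E2A-KO crossed, a setting chosen after seeing the data. Of 104 called values of named members, 68 kept their call without any 1 library and 36 did not. Most of these values were named for being the largest changes, and calls of other members are not among them. Depth that could not be recovered limits what can be said of members under 1 FPKM.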
